A study of Mus musculus with 2 samples.

Results

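Titin and the proteins of the Z-disc and M-band hold the contractile filaments of heart muscle in register. The 9 genes described here encode titin (Ttn), alpha-actinin-2 (Actn2), LIM domain binding 3 (Ldb3), the muscle LIM protein (Csrp3), nebulette (Nebl), the Xin repeat protein (Xirp1), myomesin-1 (Myom1), myozenin-2 (Myoz2) and telethonin (Tcap). They were chosen by name, with earlier results of these data known. Their regions are the rows of a Sap130 peak table whose gene annotation equals a member. This gave 20 of the 16697 peaks, and 8 of the 9 genes. Myoz2 had no row.

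Sap130 belongs to the Sin3 complex, which takes acetyl groups off histones. Its occupancy was mapped by chromatin immunoprecipitation and sequencing in embryonic mouse heart of B6 wild type. A single library made with a Sap130 antibody, labelled E13.5, was set against a single library of input DNA with no antibody, labelled E13.6. Both are whole heart, a mixture of muscle and other cells, and how many hearts went into each is not stated in the sources used here. There are no replicates, so all that follows describes 1 peak list, without a test between conditions. The table gives positions, an order and gene names, and no read counts, heights or p-values, so the depth behind each peak is unknown. It holds no expression values, and the tissue label could not be checked against marker genes. Ranges after a percentage are exact 95% intervals by the Clopper-Pearson method, and they reflect counting error alone. They do not cover how the genes were chosen. Intervals counted over peaks treat the 20 peaks as independent, although these come from 8 genes and many lie close together. Those intervals are therefore likely too narrow.

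In a sarcomere, actin filaments are anchored at the Z-disc and myosin filaments are linked at the M-band. Titin spans from one to the other. Alpha-actinin-2 cross-links actin at the Z-disc, and LIM domain binding 3, muscle LIM protein, myozenin-2, telethonin and nebulette are among the proteins attached there. Myomesin-1 joins titin to myosin at the M-band. Mutations in several of these genes are known from human cardiomyopathy.

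The named genes carried small peaks that lay at or downstream of their start, centred up to 2783 bp inside, often as a row of several. All 8 had a promoter peak, that is, a peak centred at most 1 kb from the start of the transcript that the table pairs with it. This is 88.9% of the 9 members (51.8 to 99.7), where 50.6% of 20953 protein-coding genes had such a peak and 52.6% had any named peak. With so few genes the lower bound of the interval is close to both shares. Counted over peaks, 11 of the 20 (55%, 31.5 to 76.9) were promoter peaks. The same share over all named peaks is not given here, so 55% cannot be called high or low. Quartiles of the distance from start site to peak centre were 281.1 and 1714.1 bp for the members. Over all named peaks they were 18.75 and 442.5 bp, both within the 1 kb limit. Ttn and Xirp1 had 4 named peaks each, Actn2 and Myom1 had 3, Ldb3 and Csrp3 had 2, and Nebl and Tcap had 1. Of the 8 named genes, 4 (50%, 15.7 to 84.3) thus had 3 or more named peaks, against 5.93% of all protein-coding genes with any named peak and 5.04% of those first named after the middle of the table. When peaks of a gene 500 bp or less apart were joined, an alternative chosen after the values were seen, 0 of the 8 genes had 3 or more regions, beside 0.952% of all genes with a named peak.

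The start-site windows below are shown because they display how differently the peak and the start site meet among these genes. Each is the RefSeq sequence of build GRCm38.p6 from 250 bases before to 50 bases after a start site, written 5′ to 3′ on the gene's strand. The windows of Myom1 and of the outermost listed Nebl start lay wholly inside a peak (300 of 300 bases) and that of Actn2 mostly so (249). The peak covered 82 bases of the Ldb3 window and 14 of the Ttn window, all from the gene side, and no base of the Myoz2 window. Capitals mark matches on either strand to the GATA factor motif GATAA, the NKX factor motif AAGTG, the TEAD factor motif CATTCC, the TATA box motif TATAA, and the MEF2 box and CArG box, the motifs of the muscle factors MEF2 and SRF. No capital match overlaps another within a window.
Nebl (chr2:17731085-17731384, minus strand): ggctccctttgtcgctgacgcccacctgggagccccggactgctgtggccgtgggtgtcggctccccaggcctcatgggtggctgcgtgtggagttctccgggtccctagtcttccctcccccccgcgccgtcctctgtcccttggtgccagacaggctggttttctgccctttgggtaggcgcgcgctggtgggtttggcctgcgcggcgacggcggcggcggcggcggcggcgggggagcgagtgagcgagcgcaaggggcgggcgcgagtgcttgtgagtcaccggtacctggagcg
Actn2 (chr13:12340683-12340982, minus strand): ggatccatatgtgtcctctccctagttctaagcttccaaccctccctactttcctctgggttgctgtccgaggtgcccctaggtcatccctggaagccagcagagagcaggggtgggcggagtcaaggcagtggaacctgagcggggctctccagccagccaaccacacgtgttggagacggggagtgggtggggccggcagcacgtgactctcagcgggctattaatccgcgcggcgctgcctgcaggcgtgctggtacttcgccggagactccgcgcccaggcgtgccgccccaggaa
Myom1 (chr17:71019307-71019606, plus strand): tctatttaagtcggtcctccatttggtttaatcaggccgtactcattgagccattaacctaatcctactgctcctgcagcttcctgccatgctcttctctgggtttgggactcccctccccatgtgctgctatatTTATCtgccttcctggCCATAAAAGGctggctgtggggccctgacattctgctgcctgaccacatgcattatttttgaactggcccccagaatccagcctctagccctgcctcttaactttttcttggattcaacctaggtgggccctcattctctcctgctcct
Ldb3 (chr14:34588558-34588857, minus strand): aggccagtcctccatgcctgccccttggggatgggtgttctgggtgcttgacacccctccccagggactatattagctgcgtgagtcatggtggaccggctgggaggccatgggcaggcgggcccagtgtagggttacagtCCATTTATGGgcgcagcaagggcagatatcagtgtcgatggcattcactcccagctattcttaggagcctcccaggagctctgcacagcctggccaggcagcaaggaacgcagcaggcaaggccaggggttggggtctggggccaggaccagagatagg
Ttn (chr2:76982498-76982797, minus strand): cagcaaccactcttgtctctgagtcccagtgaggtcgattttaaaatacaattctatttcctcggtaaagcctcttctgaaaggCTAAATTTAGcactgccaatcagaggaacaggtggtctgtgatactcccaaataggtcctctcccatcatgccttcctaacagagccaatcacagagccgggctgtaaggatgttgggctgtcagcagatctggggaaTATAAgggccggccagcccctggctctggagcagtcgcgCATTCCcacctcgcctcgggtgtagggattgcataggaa
Myoz2 (chr3:123034938-123035237, minus strand): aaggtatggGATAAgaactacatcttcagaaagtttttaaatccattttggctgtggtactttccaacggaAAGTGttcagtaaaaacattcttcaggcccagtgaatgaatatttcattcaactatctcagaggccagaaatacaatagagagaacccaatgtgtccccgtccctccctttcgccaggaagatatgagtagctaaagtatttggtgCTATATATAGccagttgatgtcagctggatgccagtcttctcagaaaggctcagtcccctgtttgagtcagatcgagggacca

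Ttn, the gene of the giant spring protein of the sarcomere, had 4 peaks in a row on chromosome 2 (mm10, minus strand, start site 76982547, transcript NM_028004). The peak nearest to the start, at 76982062 to 76982511, was 449 bp wide and stood at position 9559 in the order of the table. It overlapped the end of exon 1 and stopped 36 bp short of the start site. The next, at 76981448 to 76981871 (position 14952), lay in intron 1 and was 423 bp wide. A peak of 880 bp followed in the same intron at 76980399 to 76981279 (position 12484), and a peak of 565 bp at 76979773 to 76980338 (position 12483) overlapped exon 2, which holds the start of the coding sequence at 76980182. The gaps between the 4 peaks, in order from the start site, were 191, 169 and 61 bp. Together the peaks covered 2317 of a stretch of 2738 bp. The Ttn peaks therefore filled most of the stretch from just inside the start site to exon 2, and none of them held the start site.

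Myom1, the myomesin gene, had 3 peaks on chromosome 17 (plus strand, start site 71019557). The peak at 71019174 to 71019696 (position 13082, 522 bp) held the start site and was centred just upstream of it, at -122 bp. The other two lay in intron 1, at 71019851 to 71020407 (position 12824, 556 bp) and at 71020569 to 71021435 (position 13083, 866 bp). Gaps of 155 and 162 bp separated them, so that 1944 of 2261 bp were covered. As at Ttn, the widest peak was not the one at the start site. The coding sequence of Myom1 begins in exon 2, 3318 bp from the start site and beyond the last of the 3 peaks. The nearest peak named for another gene stood at Myl12a, a regulatory light chain gene of non-muscle myosin (71001035 to 71002512, position 2897, 1477 bp). It ended 820 bp before the RefSeq span of Myom1, which begins at 71003332, far upstream of the start site at 71019557.

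Actn2, encoding the main cross-linker of the Z-disc, had the earliest and widest named peak of all members. It lay at 12339957 to 12340931 on chromosome 13 (minus strand), stood at position 8536 and was 974 bp wide. It held both the start site at 12340732 and the start of the coding sequence at 12340500 in exon 1. A pair of further peaks lay in intron 1, at 12339078 to 12339463 (position 15844, 385 bp) and 12338033 to 12338258 (position 16634, 225 bp), centred 1461.5 and 2586.5 bp downstream. The peaks of Actn2 thus came later in the table and were narrower with distance from the start site, with gaps of 494 and 820 bp.

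Ldb3, which encodes a PDZ and LIM protein that binds alpha-actinin, had a peak of 395 bp over its start site at 34588607 on chromosome 14 (34588244 to 34588639, position 13115, minus strand). This peak also held the start of the coding sequence at 34588469. RefSeq lists another Ldb3 start just upstream, at 34588681, which lay outside the peak. The second Ldb3 peak, of 315 bp, lay in intron 1 at 34586717 to 34587032 (position 15622), after a gap of 1212 bp.

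Csrp3 has 2 start sites in the table, at 48848051 (transcript NM_001198841) and 48843671 (NM_013808) on chromosome 7, minus strand. Its product, the muscle LIM protein, is a Z-disc and nuclear protein. The peak named for the outer start, at 48847594 to 48847994 (position 14914, 400 bp), lay in intron 1 and ended 57 bp short of the start site. The peak named for the inner start lay 2667 bp inside it, at 48840772 to 48841004 (position 15824, 232 bp), also in intron 1. Neither start site of Csrp3 lay in a peak, and its first peak came latest among the named members.

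Nebl, which is known to encode both the long Z-disc protein nebulette and a short LIM form, had a single named peak on chromosome 2 (minus strand). It lay at 17730816 to 17731390 (position 11559, 574 bp) and held the start site at 17731068 of a transcript with 7 exons, NM_028757. Its centre was at -35 bp from that site. Which of the 2 protein forms this transcript encodes was not checked here. The RefSeq start table lists 4 starts for Nebl, at 17731134, 17670165, 17526130 and 17462856. The outermost of these was the only listed start of Nebl whose window touched a peak, and no base of the other 3 windows did. The RefSeq span of Nebl reaches beyond it, to 17734949.

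Xirp1, whose product binds actin in striated muscle, had 4 peaks on chromosome 9 (minus strand, start site 120023598). They lay at 120023013 to 120023569 (position 10888, 556 bp), 120022733 to 120022959 (position 16243, 226 bp), 120022340 to 120022679 (position 13460, 339 bp) and 120021524 to 120022058 (position 15956, 534 bp). The peak nearest to the start overlapped exon 1 and ended 29 bp short of the start site, and the other 3 lay in intron 1. The gaps were 54, 54 and 282 bp, and 1655 of 2045 bp were covered. Xirp1 and Ttn therefore share a layout, a row of 4 peaks that begins just inside the start site.

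Tcap, the gene of the small protein that caps the end of titin at the Z-disc, spans only 1143 bp on chromosome 11 (plus strand, start site 98383811). Its peak, at 98384207 to 98384762 (position 14078, 555 bp), was centred in the coding part of exon 2, the last exon, 673.5 bp from the start site. It began 396 bp inside the gene and did not hold the start site. For Myoz2, the gene of a calcineurin-binding Z-disc protein on chromosome 3 (RefSeq span 123006206 to 123035003), 0 peaks of any name overlapped the gene.

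**Figure D1:**
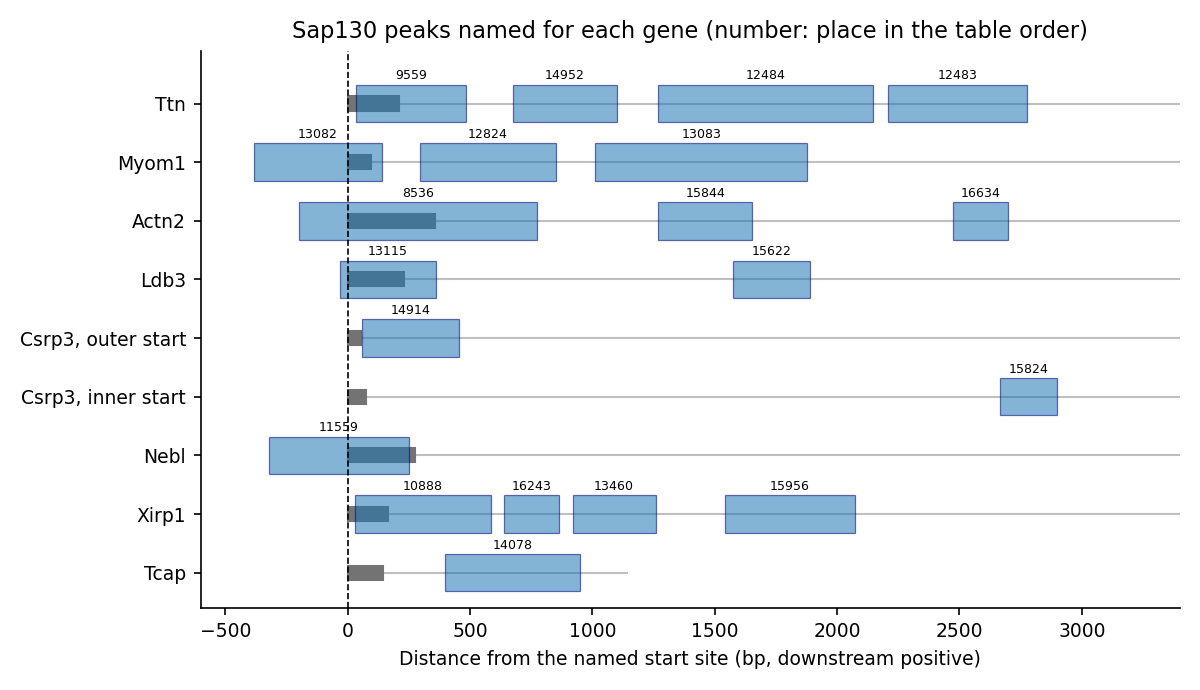
Named peaks of the 8 genes (blue boxes) by distance in bp from the start site named for them, with exon 1 as a grey box, the gene as a grey line and the place in the table printed above each peak. The start site (dashed line) lies in a peak at Myom1, Actn2, Ldb3 and Nebl, and 29 to 57 bp outside the nearest peak at Ttn, Xirp1 and the outer start of Csrp3.

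A peak held the start site in 4 of the 9 genes, 44.4% (13.7 to 78.8), which is near the 43.0% of all protein-coding genes. Among genes with a named peak, a peak held the start site in 4 of the 8 members and 9016 of 11031 protein-coding genes. Counted over peaks, 4 of 20 held it (20%, 5.73 to 43.7), against 62.5% of all named peaks. Among the named peaks after the middle of the table, where all 20 stood, the share was 34.9%. At Ttn, Xirp1 and Csrp3 the nearest peak missed the start site by 36, 29 and 57 bp. With each peak widened by 100 bp on both sides 7 peaks held it. The share of all named peaks after the same widening is not given here. Of the 20 peaks, 18 (90%, 68.3 to 98.8) were centred downstream of the start site, against 76.8% of all named peaks and 70% of those after the middle of the table. The median centre lay 819.75 bp downstream, where it was 205 bp over all named peaks. Taking only the peak nearest to a start in each gene, the median was 258.75 bp.

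The order of the table carries no stated criterion, and positions are given as ranks counted from 1 at its top. All 20 peaks stood after the middle of the table (100%, 83.2 to 100), between positions 8536 and 16634, with a median of 13288, against 46.7% of all named peaks after the middle. By genes, the first named peak stood before the middle for 0 of the 8 named members and for 67.2% of all protein-coding genes with a named peak. In the order of their first peaks the genes stood as Actn2 (8536), Ttn (9559), Xirp1 (10888), Nebl (11559), Myom1 (12824), Ldb3 (13115), Tcap (14078) and Csrp3 (14914). With no error given per peak, it is not known which neighbours in this order differ.

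Width was between 225 and 974 bp, with a median of 485.5 bp against 719 bp over all named peaks. Peaks narrower than 682 bp, the median of the whole table, made up 17 of the 20 (85%, 62.1 to 96.8), against 47.0% of all named peaks and 80.2% of those after the middle of the table. The exceptions were the first Actn2 peak and the intron peaks of 880 bp at Ttn and 866 bp at Myom1. Width falls along the table, and set against the median of the 500 rows around them, a comparison chosen after the values were seen, 15 of the 20 peaks (75%, 50.9 to 91.3) were wider, against 50.6% of all named peaks. The members' peaks were therefore narrow for the table as a whole, and most were above the median width for their place in it.

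**Figure D2:**
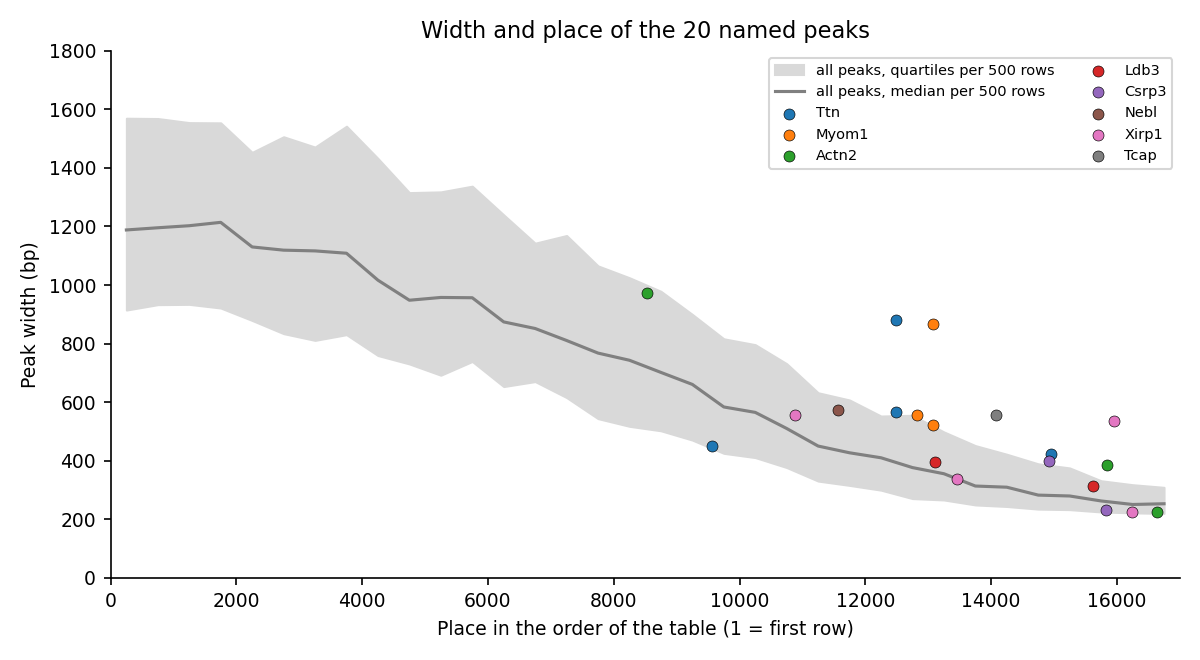
Width in bp of the 20 named peaks against their place in the table, coloured by gene, over the median (grey line) and quartiles (grey band) of all peaks in steps of 500 rows. All 20 stand after position 8348.5, the middle of the table, and 15 lie above the median of their step.

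Rows that name no gene added peaks deep inside 4 of the 9 genes, Ttn, Nebl, Actn2 and Ldb3. Such rows overlapped 3.19% of all protein-coding genes and 10.2% of those of 50 kb or more. Of the 5 members of that length (Ttn, Nebl, Myom1, Actn2, Ldb3), 4 held such a peak (80%, 28.4 to 99.5). The lengths run up to 392277 bp for Nebl, and longer genes offer more room for a peak. All named peaks of the table were centred within 10 kb of the start site named for them. The unnamed peaks of Ttn, Actn2 and Ldb3 lay farther than that from any listed RefSeq start. Those of Nebl lay nearer to a listed start that the peak table does not name. The list of starts is not complete, as Tcap and Xirp1 have none in it.

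The 3 unnamed peaks of Ttn lay side by side, at 76807033 to 76807392 (position 12580, 359 bp), 76806022 to 76806842 (position 13256, 820 bp) and 76805283 to 76805919 (position 15653, 636 bp). They were centred 175334.5 to 176946 bp inside the gene, 62.9% to 63.5% of the way along it. The foremost overlapped exon 68 of 192, and the other two lay wholly in intron 68. The listed RefSeq start nearest to any of their centres was 129960 bp away. A shorter titin, Cronos, is known to start from a promoter inside the gene. Whether these peaks lie at that promoter was not tested, since the tables used here list 1 start for Ttn.

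At Nebl, 2 unnamed peaks lay at 17458397 to 17460180 (position 13848) and 17460230 to 17460475 (position 14539). The former was 1783 bp wide, at the 93.9th percentile of all peak widths and wider than any named peak of the members. The pair was centred 3567.5 and 2503.5 bp downstream of the innermost listed RefSeq start of Nebl at 17462856. At Ldb3, a peak of 592 bp lay in intron 10, at 34548962 to 34549554 (position 10344), earlier in the table than either named Ldb3 peak. At Actn2, a peak of 208 bp overlapped exon 18 of 21, at 12274894 to 12275102 (position 16473). A further unnamed peak, of 850 bp, lay 1861 bp past the end of Xirp1, at 120011044 to 120011894 (position 11225).

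**Figure D3:**
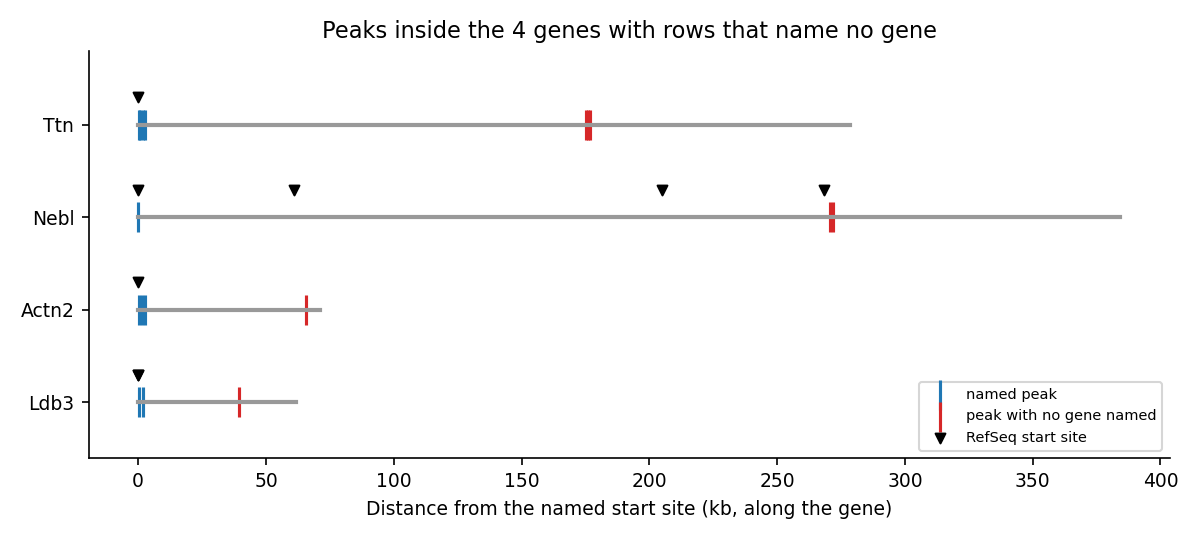
Peaks along Ttn, Nebl, Actn2 and Ldb3, in kb from the named start site, with named peaks in blue, peaks that name no gene in red and RefSeq starts as triangles. The 3 red marks of Ttn lie near 63% of its length, and the 2 of Nebl lie just past its innermost listed start.

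The sequences printed above differ as much as the peaks do. The Nebl window held 32 CpG dinucleotides in 300 bases and that of Actn2 held 19. Over all 10298 RefSeq windows whose start site lay in a peak, with several windows for some genes, the median was 24, with quartiles of 18 and 32, and over the 21114 windows with no base in a peak it was 4, with quartiles of 2 and 7. The Myom1 window, although wholly inside a peak, held 2 CpG and both Ldb3 windows 6. Only 20 of the 10298 windows with a bound start (0.194%) held 2 or fewer, and 174 (1.69%) held 6 or fewer. Where the start-site peak stood after the middle of the table the median was 20. The windows of Ttn (8), Csrp3 (6 and 4) and Myoz2 (4) held few CpG as well, so Nebl and Actn2 were the only 2 of the 7 genes with a window, counting 12 windows in all, that reached the lower quartile of bound starts.

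**Figure D4:**
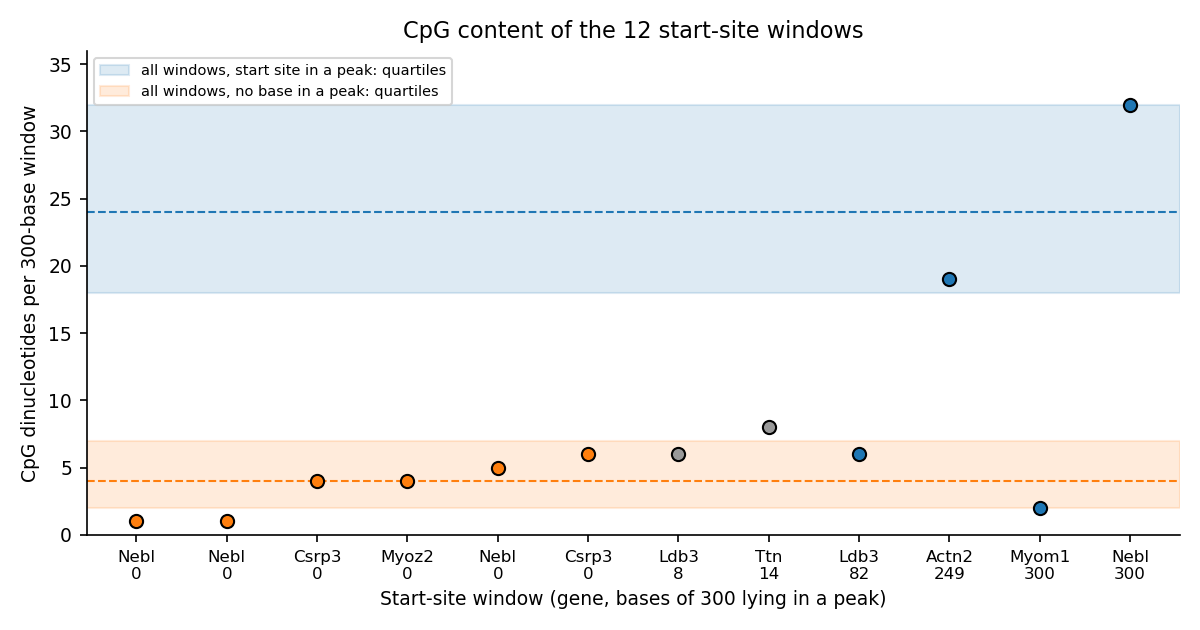
CpG dinucleotides in the 12 RefSeq start-site windows of 7 members, ordered by how many of the 300 bases lie in a peak (printed under each gene), in blue where the start site lies in a peak, orange where no base does and grey otherwise. Bands are the quartiles and dashed lines the medians of all windows with the start site in a peak (blue) and with no base in a peak (orange). Myom1 and the Ldb3 window with 82 bases in a peak lie in the orange band although the start site lies in a peak.

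A CArG box was found in 4 of the 12 windows, where 1.63% of all 32851 windows held one. The overlapping pair of Ldb3 windows shares 1 match, so there were 3 different matches, in Myom1, Ldb3 and Nebl. The Myom1 match, CCATAAAAGG at -99 from the start site, lay inside the peak. The Ldb3 match, CCATTTATGG at -109 from the start at 34588607, lay outside the peak, as did a match at -162 in the window of the innermost Nebl start. A MEF2 box stood at -166 in the Ttn window and at -33 in the Myoz2 window, both outside any peak, and 3.19% of all windows held one. TATAA was found in 1 of the 12 windows, that of Ttn at -28, against 24.9% of all windows. Ttn also had CATTCC at 11 bp past the start site, a motif held by 14.7% of all windows. CATTCC also stood at -230 in the window of the Nebl start at 17670165. GATAA was found in 4 of the 12 windows, those of Myom1, Myoz2 and Nebl, against 25.4% of all windows. AAGTG was found in 3 of the 12, those of Csrp3, Myoz2 and Nebl, against 46.4%. The E-box CANNTG was found in 9 of the 12 windows and in 72.3% of all. A pair of E-boxes reading CACGTG stood at -84 and -48 in the Actn2 window, inside its peak. These are matches of letters in a fixed window, and no factor other than Sap130 was measured.

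Other genes of the Z-disc and M-band ranged from very early peaks to none. Of 43 further listed genes, 30 had a named peak and 26 had a promoter peak (60.5%), beside 52.6% and 50.6% of all protein-coding genes. Of the 30, 4 (13.3%) had 3 or more named peaks, beside 5.93% of all protein-coding genes with a named peak. The first peaks of the 30 had a median position of 10584.5, beside 12191.5 for the members and 5972 over all protein-coding genes. Before the middle of the table stood 13 of the 30, beside 67.2% of all protein-coding genes with a named peak. The earliest promoter peaks were at Capzb (position 715), an actin capping protein gene, Sqstm1 (1825), the autophagy receptor p62, and the PDZ and LIM genes Pdlim7 (3086) and Pdlim5 (4352). The widest peaks were at Flnc (3025 bp), the filamin of striated muscle, Nbr1 (2329 bp), an autophagy receptor that binds the titin kinase region, Pdlim5 (2149 bp) and Pdlim7 (1769 bp). The Flnc peak held the start site but was centred 1392.5 bp inside the gene. The genes of this list first named before the middle include Capzb and Sqstm1, which are used in many tissues, and the muscle gene Flnc (position 5847). Whether place in the table goes with breadth of use was not tested.

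No peak was named for 13 of the 43 further listed genes. Over all protein-coding genes, 9922 of 20953 had none. Among the 13 were the thin filament ruler Neb, its relative Nrap, the Z-disc genes Myot, Mypn and Xirp2, and the caveolar gene Cavin4. The myomesins Myom2 and Myom3 were there too, with Trim54, Ankrd2, Ankrd23 and Capn3. Myom1 was thus the only myomesin gene of the 3 with a named peak, and Xirp1 the only one of the 2 Xin repeat genes.

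Genes of the myosin and actin filaments also stood late in the table, several with rows of peaks. Of 10 cardiac myosin genes, 8 were named, all first after the middle of the table (median first position 11867.5), and 6 had 3 or more peaks. Of 11 thin filament genes, 10 were named, 1 of them first before the middle (median 11544), and 3 had 3 or more peaks. Of all protein-coding genes, 52.6% were named. Of those named, 67.2% were first named before the middle and 5.93% had 3 or more peaks. These counts are of peaks as listed, with close peaks not joined. Median peak width was 402 bp for the myosin genes, 413 bp for the thin filament genes and 485.5 bp for the members. These sets were small and chosen by name, with earlier results of these data known, and no difference between them was tested.

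**Figure D5:**
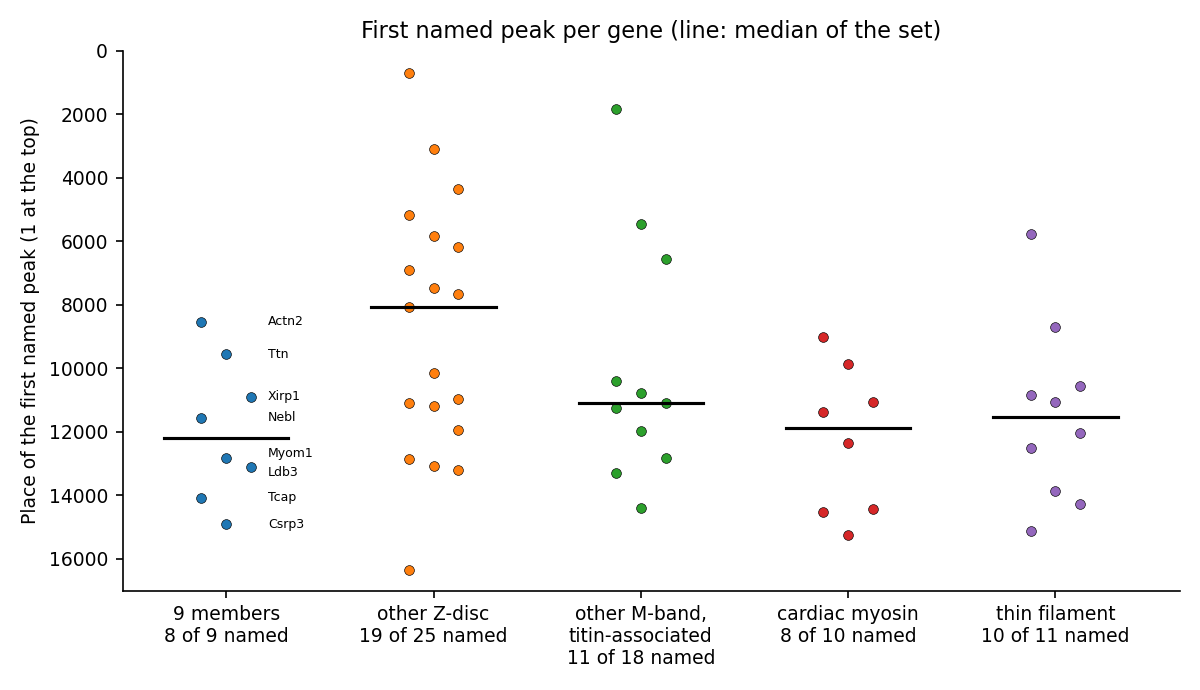
Place in the table of the first named peak of each gene (points, position 1 at the top) for the 9 members, the other listed Z-disc and M-band genes, the cardiac myosin genes and the thin filament genes, with the median of each set as a line. The 8 named members lie between 8536 and 14914, while the other Z-disc genes run from 715 to 16345.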

How the data were processed

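The authors deposited 1 peak table, called on 1 Sap130 ChIP library against 1 input library. Per the submitters' processing notes, the tools were Bowtie 1.1.2, a read aligner, and MACS2 2.1.0.20140616, a peak caller, with the builds GRCm38 and mm10. Thresholds, duplicate handling, region filters and how genes were assigned are not stated in the sources used here, and each could alter how many peaks there are and how wide. The table joins no peaks, so a row of small peaks and a broad region split by the caller cannot be told apart. Peak positions are printed as deposited and are uncertain by 1 bp. Transcript ends count from 0 and are printed with 1 added. Width is end minus start.

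Peaks were matched to a RefSeq table of GRCm38.p6 by accession (14986 rows), symbol (135) or synonym (25), and 25 did not match. All protein-coding genes means those on the autosomes and X with a curated transcript. Start-site windows matched 7 of the 9 members, and Tcap and Xirp1 had none. The genes named beyond the members were, by rule, those of the list with the 4 earliest promoter peaks, the 4 widest peaks or no named peak, and neighbours within 1 kb. Some genes that the rule names are left unreported. The members and lists were chosen with earlier results of these data known. The placing of peaks in exons and introns was tested on simulated data. Alternatives were other windows, any base of a peak, merged peaks, parts of the table and 1 peak per gene. Python 3.11.15, pandas 2.3.3, NumPy 2.4.6, SciPy 1.17.1 and matplotlib 3.10.9 were used.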

Additional observations from a re-analysis of the deposited data

How the results depend on the processing

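No paired analysis was possible because there was 1 ChIP library and 1 input library. Of 21 alternatives, 11 kept the value within 1.5 times. Restricted to the part of the table before its middle, 0 members had a named or a promoter peak, and 11 of the 52 listed Z-disc and M-band genes had a promoter peak in place of 34. With peaks under the median width left out, 3 members had a named peak, 1 had a promoter peak, and 14 of the 52 listed genes did. Merging peaks of a gene that lay 500 bp or less apart left 11 regions in place of 20, and 0 members with 3 or more in place of 4. With 1 peak per gene the median offset was 258.75 bp in place of 819.75 bp. With peaks widened by 100 bp on each side 7 held the start site in place of 4. For the counts without narrow peaks and with widened peaks, the same shares over all genes or peaks are not given here. Windows of 500 bp and 3 kb counted 7 and 8 members with a promoter peak. The depth of the libraries is unknown, so a gene without a peak, such as Myoz2, may have occupancy below what the caller reports.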

Other observations

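Rows that name no gene also fell inside 3 of the 64 other listed genes (4.69%, 0.977 to 13.1), which is near the 3.19% of all protein-coding genes. Myl4, the atrial light chain gene of 41199 bp on chromosome 11, had no named peak but held 5 such peaks. Of these, 1 stood at 104571436 to 104571707 (position 13274) and the other 4 lay in a row from 104577426 to 104579546 (positions 12076, 13775, 12994 and 10863), between 239 and 547 bp wide. Palld, a gene of an actin-binding protein, held 3 (positions 10754, 16547 and 13299) and Mylk3, a cardiac myosin light chain kinase gene, held 1 (position 13021).

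The Ttn peaks at positions 12483 and 12484 stood next to each other both in the table and on the chromosome. Consecutive rows lay 500 bp or less apart on the chromosome in 10 cases over all rows, and the pair of Tnni1, a troponin I gene, at positions 12027 and 12028 was another of them. The criterion of the order is not stated in the sources used here, and the reason for such pairs was not tested.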
